A study of Mus musculus with 6 samples.

Results

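The 6 libraries of primary mouse lung endothelial cells fell into 2 sets that the labels do not name. The first set was wild type 1 and knockout 1, and the second was wild type 2 and knockout 2, 3 and 4. The split was seen in the measured values themselves, so the difference between the sets is described here without any test. It was described over the 15229 of 53735 genes whose mean reached 10 normalized counts. The lowest mean kept was 10.0086 (RP23-219P13.3) and the highest left out was 9.99987 (Susd3).

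Wild type means cells of mice with intact Zmpste24, and knockout means cells of mice that lack it, 2 and 4 libraries. Zmpste24 encodes a membrane protease that cuts prelamin A into mature lamin A, and mice without it age early. Cells of both genotypes were captured on magnetic beads against CD31 and ICAM2, grown on gelatin to confluence without passage or treatment, and read as poly(A) RNA in single-end reads of 100 nt. The labels name 2 cohorts of mice but place no library in either, so the sets cannot be matched to the cohorts. They give no age, no deleted exon and no statement that each library came from its own animal, so the spread between libraries may be partly technical.

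Endothelial cells line the vessels and carry junction proteins such as VE-cadherin (Cdh5), while macrophages live in the airspaces and the tissue around them and are common companions of a digested lung. Endothelial cells in culture lose features of their vessel bed, and they or accompanying mesenchymal cells can take up contractile genes driven by serum response factor and myocardin. Senescent cells leave the cycle for good. The Cdkn2a locus, which encodes an inhibitor of cyclin-dependent kinases and a protein that stabilises p53, is a classic mark of that state.

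The libraries held 32699024 to 45613685 recovered reads, with 21074 to 22524 genes read at least once. Mitochondrial genes took 1.51% and 1.52% of reads in the first set and 1.21% to 1.48% in the second. Genes of ribosomal proteins took 2.29% and 2.16% in the first set and 2.65% to 2.80% in the second. Both shares moved with the sets, and their part in other differences was not tested. Zmpste24 itself (chromosome 4, 121059237 to 121098241) was read at 5503 and 5079 normalized counts in the first set (wild type 1, then knockout 1) and at 4148, 3764, 3599 and 3720.4 in the second. Knockout 1 lay above wild type 2. Since the deleted part is not given, the total of the gene is no check of the labels.

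Counts are given in the same order below, first wild type 1 and knockout 1, then wild type 2 and knockout 2, 3 and 4. They are normalized counts, that is reads divided by a size factor of the library, and are compared only within a gene. Differences are the first set minus the second on the scale of log2(normalized count + 1), with genotype as a covariate and the standard error (SE) of the fit, and they understate the change of genes near 0. A gene was counted as separated where every library of one set lay above every library of the other and the difference was at least 1. A gene near 0 in one set passes the filter only through the other, so where a list had members that were not tested, its count of separated members is an account of those tested and no support for a direction. Genes named beyond the naming rule were chosen after their values were seen.

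Of the tested genes, 1235 (8.11%) were separated higher in the first set and 1416 (9.3%) lower, 2651 or 17.4% in all. Each list count below is to be read beside the 8.11% and the 9.3%. With no minimum difference, 4680 genes (30.7%) stood higher without overlap and 4980 (32.7%) lower. A difference of at least 4-fold was held by 429 separated genes on the higher side and 543 on the lower. The median difference of all tested genes was −0.02. Within genotype, wild type 1 minus wild type 2 and knockout 1 minus the mean of knockout 2 to 4 share no library. Across genes these had a Pearson r of 0.84 and the same sign in 82.8% of genes, a description only, since genes are not independent and the sets were chosen on these values.

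**Figure D1:**
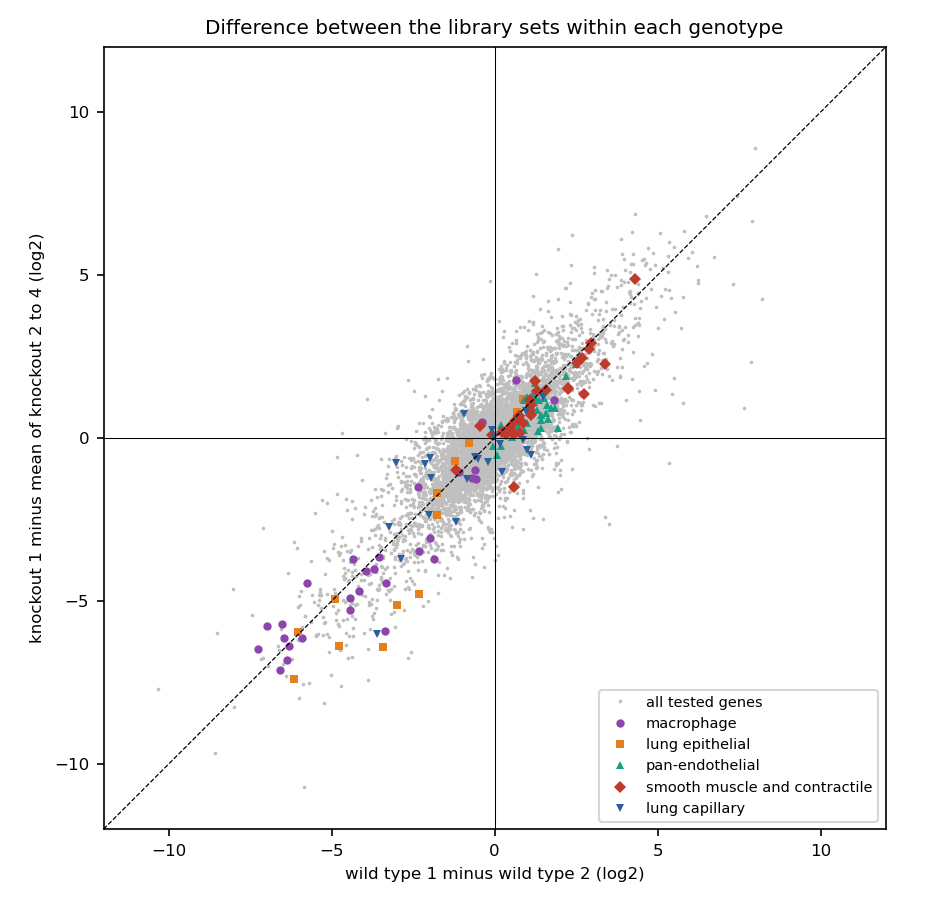
Set difference of each tested gene within wild type (horizontal axis, log2) and within knockout (vertical axis, log2), with members of 5 gene lists in colour and a dashed line of equality. Most macrophage and several lung epithelial genes sit at the lower left, where both genotypes were lower in the first set, and contractile genes mostly at the upper right.

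Macrophage genes were lower in wild type 1 and knockout 1. Of 29 listed and tested members, 24 were separated lower, 2 higher, and the median difference was −4.0, against −0.02 for all tested genes. The median was −3.70 within wild type and −4.07 within knockout. Summed over the list, macrophage genes took 0.0276% and 0.0244% of all normalized counts in the first set and 0.124%, 0.142%, 0.184% and 0.117% in the second. Bulk RNA cannot tell fewer cells of a type from less RNA per cell. These shares move with every set difference given below, and their part in those differences was not tested.

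Lyz2 (chromosome 10, 117277331 to 117282321), which encodes the lysozyme of macrophages and other myeloid cells, had 856 and 718 counts in the first set and 18509, 20138, 27455 and 18131 in the second. Every library of the second set thus lay far above both of the first, with a difference of −4.72 ± 0.20 (SE). Its near-identical neighbour Lyz1 had 2.09 and 0 counts against 8.06, 18.2, 20.6 and 14.1, and reads shared by the 2 copies may have been split or lost in counting. Chil3 (chromosome 3, 106147554 to 106167564), a chitinase-like protein abundant in alveolar macrophages, had 33.5 and 28.8 counts against 5019.8, 3564, 3375 and 2835, a difference of −6.94 ± 0.15.

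**Figure D2:**
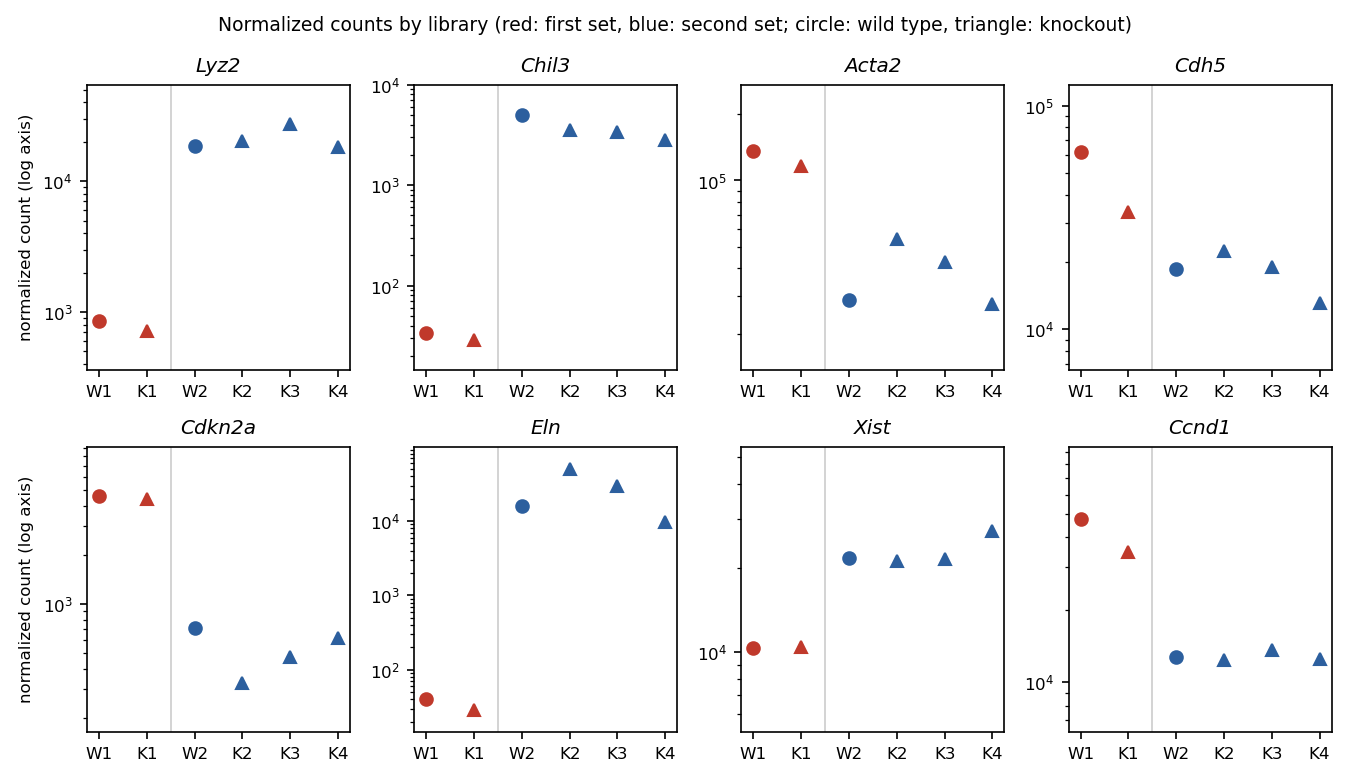
Normalized counts (log axis) of 8 genes in each library, W for wild type and K for knockout, with the first set in red and the second in blue. Lyz2, Chil3, Eln and Xist lie lower, and Acta2, Cdh5, Cdkn2a and Ccnd1 higher, in both libraries of the first set than in any of the second.

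Several macrophage genes were close to 0 in the first set. Spi1, the gene of the myeloid transcription factor PU.1, had 0 and 1.03 counts there and 152, 155, 270.1 and 135 in the second set. The adaptor gene Tyrobp, which passes on signals of myeloid receptors, had 4.19 and 3.08 against 427, 409, 647 and 372. Ctss, a lysosomal protease of antigen-presenting cells, had 18.8 and 14.4 against 1907, 2015, 2895 and 1653. The haemoglobin scavenger receptor gene Cd163 had 0 and 1.03 against 78.3, 197, 179 and 130.2. All 4 genes were barely read in wild type 1 and knockout 1 and clearly read in each other library.

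The complement genes C1qa, C1qb and C1qc, which resident macrophages secrete, were lower together. C1qa had 12.6 and 22.6 counts against 1202, 1580.4, 2329 and 1218, C1qb 20.9 and 24.7 against 1325, 1805, 2543 and 1301, and C1qc 9.42 and 29.8 against 1323, 1706, 2296 and 1223. Itgam, an integrin chain of myeloid cells, had 4.19 and 10.3 against 472, 496, 864 and 465, and Adgre1, the gene of F4/80, 9.42 and 33.9 against 558, 716, 1206 and 504. Smaller differences were found for Csf1r, the receptor of macrophage colony-stimulating factor, at 311 and 289.6 against 501, 622, 981 and 518 (−1.01 ± 0.30), and for Cd68 at −2.63 ± 0.35. Arg1, the arginase of alternatively activated macrophages, was outside the list and had 3.14 and 21.6 counts against 5304, 3936, 5849 and 4572.

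PU.1 binds DNA at a core of GAGGAA, and the letters were therefore looked for in the 250 bases before the RefSeq start of each gene (build GRCm38.p6, both strands). Of the 24 macrophage genes separated lower, 17 had a promoter in the RefSeq table and 11 of these held GAGGAA. The shares were 26.3% of the 10375 tested genes with a promoter and 25.9% of all 27025 genes of the RefSeq table. A match is a description of the sequence, not a binding site. The promoters of C1qb (chr4:136886201-136886450, minus strand) and C1qc (chr4:136892915-136893164, minus strand), neighbours on chromosome 4, are shown 5′ to 3′ because both genes moved together. The match is in capitals, read as GAGGAA in C1qb and from the other strand as TTCCTC in C1qc.
C1qb: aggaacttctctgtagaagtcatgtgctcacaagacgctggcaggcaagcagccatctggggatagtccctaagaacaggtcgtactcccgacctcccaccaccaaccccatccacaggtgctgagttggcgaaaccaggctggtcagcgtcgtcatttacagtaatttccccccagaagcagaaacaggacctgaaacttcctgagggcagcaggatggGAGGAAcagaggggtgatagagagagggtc
C1qc: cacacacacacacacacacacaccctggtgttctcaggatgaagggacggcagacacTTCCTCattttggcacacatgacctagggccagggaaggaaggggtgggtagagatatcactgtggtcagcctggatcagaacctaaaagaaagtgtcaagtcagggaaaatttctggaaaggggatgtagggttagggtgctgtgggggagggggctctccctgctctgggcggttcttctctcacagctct

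Not every myeloid gene was lower. The tetraspanin gene Cd53, known from leukocytes, had 1506 and 1197 counts against 429, 508, 669.6 and 452, and Clec7a, the receptor Dectin-1, 31.4 and 66.8 against 19.6, 17.3, 13.7 and 28.3. Both were separated higher in the first set, at 1.42 ± 0.22 and 1.32 ± 0.43. Gpnmb, a glycoprotein of phagocytes, differed by less than 1 at −0.99 ± 0.34.

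Of the 12 listed alveolar macrophage genes, 6 reached the filter. Marco, a scavenger receptor, had 15.7 and 33.9 counts against 1487, 1924, 4705 and 1695. Chil3 and Marco were separated lower, and the cholesterol transporter gene Abcg1 was separated higher at 992 and 471 against 315, 295, 327 and 247. The list median was −0.11, and it changed sign without knockout 1 (0.68) or without knockout 4 (0.015). The defining alveolar macrophage genes Siglecf, Ear1 and Ear2 were among the 6 below the filter.

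Genes of lymphocytes, neutrophils, monocytes and dendritic cells were mostly too low to test, 4 of 25. Ptprc, the pan-leukocyte antigen CD45, had 5.23 and 10.3 counts against 149.8, 179.8, 291 and 147 and was separated lower. S100a8, a calcium-binding protein of neutrophils, went the other way with 168 and 202 against 35.7, 79.4, 73.7 and 48.4, and so did the basophil protease gene Mcpt8 with 1157 and 1549.9 against 546, 389, 606 and 715. Of the 5 tested genes of MHC class II presentation, the peptide-loading gene H2-DMa was separated higher (204 and 295 against 105, 132, 142 and 133), the class II chain gene H2-Ab1 was lower without overlap at −0.83 ± 0.22, and 1 other, the invariant chain gene Cd74, was separated lower. The list median of 0.41 turned to −0.37 without knockout 1.

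Several genes of alveolar epithelium were close to 0 in the first set. Of 20 listed genes, 13 were tested. The members close to 0 in the first set passed the filter only through the second, so no count or median over the list is read. The surfactant gene Sftpb had 1.05 and 0 counts in the first set and 145, 187, 279.5 and 87.8 in the second, and Sftpc, the marker of alveolar type II cells, 4.19 and 0 against 55.3, 120.4, 93.5 and 53.5. The phosphate transporter gene Slc34a2, the aspartic protease gene Napsa, the junction gene Cldn18 and the collectin gene Sftpd had 0 counts in both libraries of the first set.

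With a floor of 3 counts per library in place of 0, these 4 genes were at least 24.2-fold (Slc34a2), 20.9-fold (Napsa), 9.75-fold (Cldn18) and 10.2-fold (Sftpd) lower in the first set. Among genes of type I cells, Hopx was separated lower (12.6 and 33.9 against 44.9, 172, 133 and 59.6), and Ager was lower without overlap but did not reach a difference of 1 (31.4 and 46.2 against 73.7, 83.9, 96.0 and 55.5). Abca3, a lipid transporter best known from alveolar type II cells, was higher without overlap in the first set at 4883 and 4746 against 3047, 2833, 2718 and 2686. It carried most of the summed counts of the list, 5005 and 4911 counts in the first set and 3228 to 3857 in the second.

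**Figure D3:**
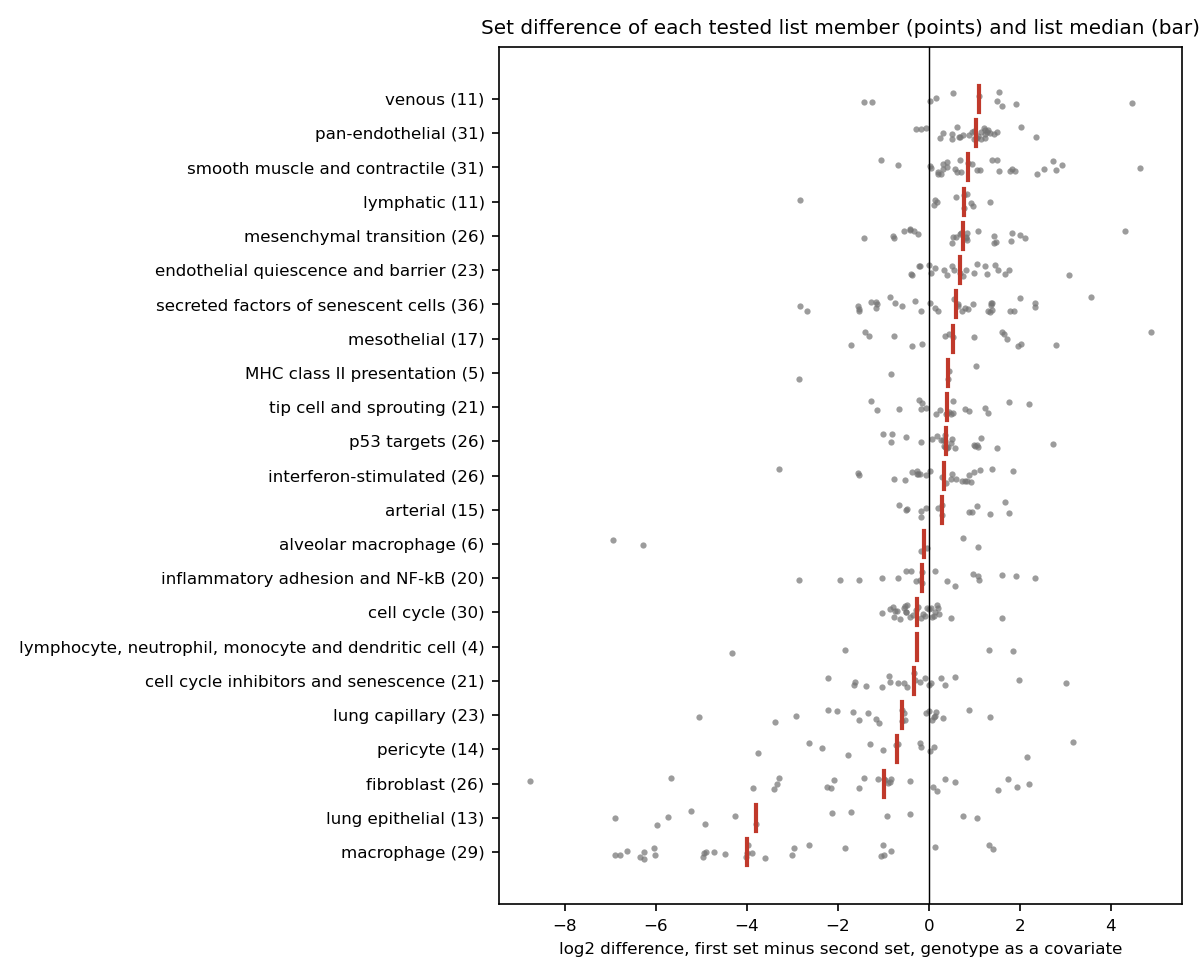
Set difference (first minus second, log2) of every tested member of 23 gene lists as points, with the list median as a red bar and the number of tested members in brackets. Macrophage genes have a median near −4, and venous and pan-endothelial genes one near 1, with members on both sides of 0 in most lists. The low median of lung epithelial genes covers only members that passed the filter.

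Endothelial identity genes were higher in wild type 1 and knockout 1. Of 31 tested pan-endothelial genes, 16 were separated higher and 0 lower, with a median of 1.05 (1.31 within wild type and 0.77 within knockout). The list took 0.714% and 0.438% of counts in the first set and 0.203% to 0.308% in the second. In the 16 separated genes wild type 1 lay above knockout 1, while their place above the other libraries follows from the definition. Between the sets the macrophage share ran the opposite way. Within the first set it did not, with 0.0276% in wild type 1 and 0.0244% in knockout 1.

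Cdh5 (chromosome 8, 104101625 to 104144511) had 62133 and 33414 counts in the first set and 18632, 22282, 18996 and 13135 in the second, a difference of 1.24 ± 0.28 (SE). Wild type 1 was well above knockout 1, and both were above the other 4. Pecam1, the gene of the sorting antigen CD31, had 30000.4 and 17153 counts against 10125, 12462, 11099.9 and 7429. Icam2, the gene of the other sorting antigen, had 2440.3 and 1542 against 676, 999, 915 and 596. Both antigens were thus measured at higher RNA levels in the first set, at 1.09 ± 0.28 and 1.29 ± 0.30.

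The largest differences within the list were those of Emcn, a sialomucin of capillaries and veins, and Mmrn2, a matrix protein that binds VEGF. Emcn had 32022 and 20466 counts against 5667, 5254, 4373 and 3339.9 (2.36 ± 0.19), and Mmrn2 14184 and 8648 against 3089, 2760.3, 2414 and 1816 (2.03 ± 0.19). Von Willebrand factor, Vwf, had 4293 and 2939 against 1825, 971, 942 and 819, the receptor gene Tie1 17324 and 11312 against 6061, 6094, 4997 and 3701, and the transcription factor gene Erg 4832 and 2754 against 1603, 1632, 1442 and 1109. The endothelial nitric oxide synthase gene Nos3 stood higher without overlap but just under a difference of 1 (0.99 ± 0.32). Ets1, a transcription factor that mesenchymal cells also use, overlapped between the sets at −0.29 ± 0.25, and it changed sign without knockout 1 (0.07).

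**Figure D4:**
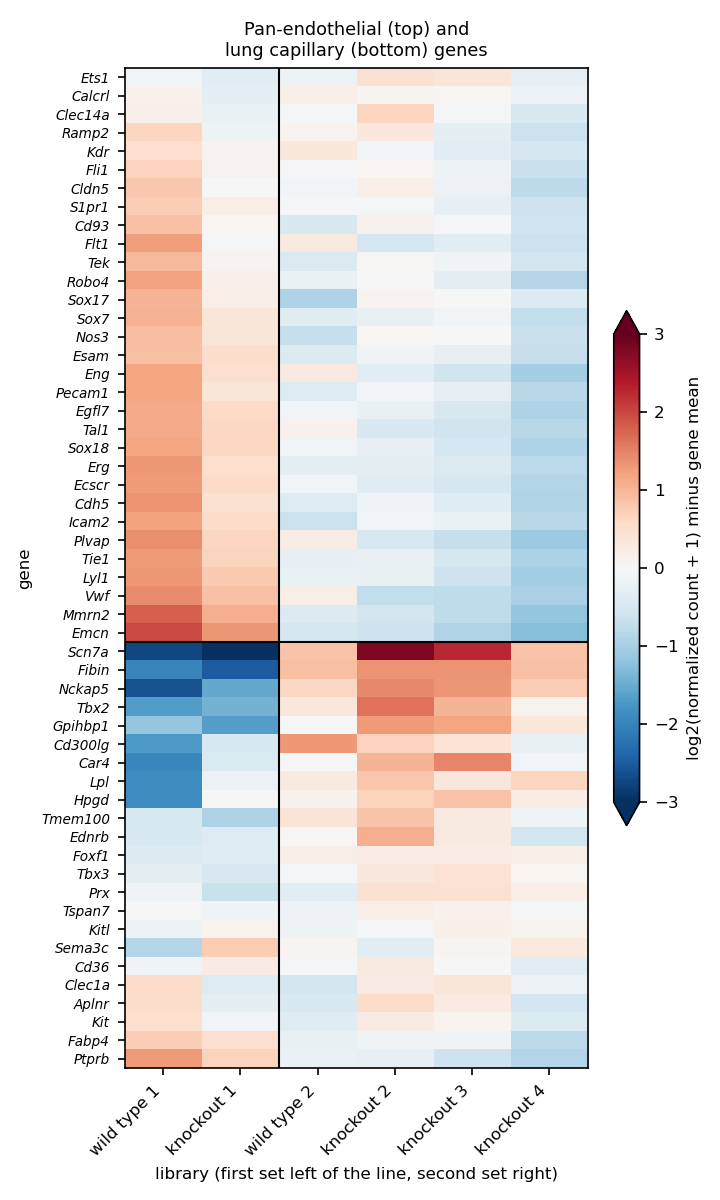
Each row is a gene and each column a library, with colour showing log2(normalized count + 1) minus the gene's mean over the 6 libraries. Most pan-endothelial rows (top) are red in wild type 1, paler in knockout 1 and blue in knockout 4, while the upper lung capillary rows (below the line) are blue in both libraries of the first set.

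Lung capillary genes did not follow the pan-endothelial genes. Of 23 tested members 10 were separated lower and 1 higher, and the median was −0.58 (−0.59 within wild type and −0.65 within knockout). Scn7a, a sodium channel gene, had 39.8 and 15.4 counts against 492, 1901, 1308 and 487, and Fibin, a secreted protein, 611 and 423 against 4515, 6183, 6168 and 4401. The transcription factor gene Tbx2 had 619.8 and 739 against 2502, 6147, 4047 and 2144. Gpihbp1, which anchors lipoprotein lipase on the capillary wall, had 178 and 126 against 407, 967, 917 and 506, and Car4, the carbonic anhydrase of alveolar capillaries, 17.8 and 53.4 against 71.4, 149, 203 and 68.6.

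The lipase gene Lpl itself was lower at 937 and 3036 against 4141, 6140.2, 4344 and 5416, with wild type 1 far below the other 5, and its difference of −1.33 was −2.14 without knockout 1. Foxf1, a transcription factor of lung mesenchyme and capillaries, was lower without overlap by a small margin (−0.58 ± 0.07). In the other direction, the phosphatase gene Ptprb, which restrains TIE2 signalling, was separated higher at 6464 and 4217 against 2315, 2259, 1729 and 1439, and the fatty acid carrier gene Fabp4 stood higher at 0.88 ± 0.22. Kitl, the ligand of KIT, had 7303 to 8965 counts over the 6 libraries and a difference of 0.01 ± 0.08, whose sign turned under 4 other settings. Several listed genes, Tbx2 among them, are also expressed by lung mesenchyme.

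Genes of endothelial quiescence and barrier were separated higher in 8 of 23 cases and lower in 0, with a median of 0.68. Procr, the endothelial protein C receptor, had 13873 and 11183 counts against 1709, 1216, 1199 and 1391, a difference of 3.09 ± 0.09. The 2 libraries of the first set lay near each other and far above the rest. Thrombomodulin, Thbd, had 19796 and 36939.5 against 12898, 6559.9, 8089.6 and 14302, the gap junction genes Gja5 and Gja4 differed by 1.67 ± 0.37 and 1.77 ± 0.29, and the BMP inhibitor gene Smad6 by 1.06 ± 0.14. Klf4, a factor induced by laminar flow, was lower without overlap at 2178 and 2413 against 3038, 3519, 2961 and 2748.

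Of 21 sprouting genes, 4 were separated higher and 2 lower, beside 8.11% and 9.3% of all tested genes, with a median of 0.40. The share lower, 9.52%, was thus near that of all tested genes. Esm1, a secreted proteoglycan of tip cells, had 6410.0 and 2289 counts against 1152, 584, 451 and 668, and the netrin receptor gene Unc5b 18267 and 20225 against 7458, 4089, 4298 and 6306. Plvap, which forms the diaphragms of fenestrae and caveolae, had 15814 and 9302 against 6992, 4245, 3713 and 2795. The basement membrane genes Nid1 and Nid2, whose proteins are close relatives, went in opposite directions, Nid1 with 173153 and 113976 against 53858, 64729.5, 62684 and 52496 and Nid2 with 4625 and 5109.9 against 11239, 14386, 14138 and 9376. Vegfa was lower without overlap (−0.66 ± 0.10), and the vasodilator peptide gene Adm was separated lower (−1.14 ± 0.42).

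Of 15 arterial genes, 4 were separated higher and 0 lower, beside 8.11% and 9.3% of all tested genes, with a median of 0.29. Notch4 had 7769 and 4186 counts against 1894, 2864, 2514 and 1645, while the Notch target gene Hey1 was lower without overlap at −0.65 ± 0.20. Cxcl12, a chemokine of arterial and stromal cells, overlapped between the sets because wild type 1 had 10038 and knockout 1 3292 counts around the 6413 to 9040.1 of the second set. Of 11 venous genes, 6 were separated higher and 2 lower, with a median of 1.11.

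Among the venous genes, P-selectin, Selp, had 13114 and 8876 counts against 4470.3, 3094, 3627 and 2082, E-selectin, Sele, 473 and 463 against 141, 102, 144 and 97.9, and the serine protease gene Prss23 56505 and 65868 against 24567, 18696, 17898 and 20838. The largest venous difference was that of Car8, a carbonic anhydrase-related gene, at 1219 and 919 against 76.0, 25.5, 23.1 and 56.5. Nr2f2, which encodes the transcription factor COUP-TFII that sets venous fate, was separated lower instead, at 2982 and 2355 against 6179, 8711, 8307 and 5840.1. Mesenchymal cells also express Nr2f2. The lymphatic list had 1 of 11 genes separated higher, the matrix gene Reln (7074 and 4787 against 4712, 1276, 1176 and 1506), and 1 lower, the fibrinogen-like gene Fgl2 (171 and 154 against 1880.3, 1012, 779 and 739.9), shares close to the 8.11% and 9.3% of all tested genes. Reln in wild type 2 was near knockout 1 and far from knockout 2 to 4, and its difference of 1.35 was 0.59 without knockout 1. Lyve1, the hyaluronan receptor of lymphatic endothelium and some macrophages, overlapped between the sets at 25253 and 14799.8 against 17541, 11803, 9890.1 and 6946.

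Most tested contractile genes were higher in wild type 1 and knockout 1. Of 35 listed genes 31 were tested, 14 were separated higher, 0 lower, and the median was 0.86 (1.07 within wild type and 0.69 within knockout). The count is an account of the tested members only. Acta1, near 0 in the second set, passed the filter only through the first. They took 1.81% and 1.72% of all counts in the first set and 1.03% to 1.19% in the second. Acta2 (chromosome 19, 34241090 to 34255590), smooth muscle actin, had 136402 and 115895 counts in the first set and 28539.5, 54028, 42660.0 and 27519.8 in the second, a difference of 1.83 ± 0.32 (SE). Knockout 2 was the highest library of the second set and still below both of the first.

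Other smooth muscle genes were higher to a similar or larger extent. Calponin, Cnn1, had 8424 and 5503 counts against 1141, 610.5, 805 and 1139.5 (2.80 ± 0.25), and the actin nucleator leiomodin, Lmod1, 5801 and 3562 against 548, 959, 733 and 553 (2.73 ± 0.33). The smooth muscle myosin gene Myh11 had 3117 and 3418 against 489, 772, 639.6 and 496. Myocd, the gene of the coactivator myocardin, had 366 and 200.3 against 54.2, 99.5, 84.9 and 55.5, and Kcnmb1, a potassium channel subunit, 534 and 538 against 92.2, 130.5, 107 and 91.9. Actins of other muscles were higher as well, Actg2 at 1209 and 1906 against 510.4, 587, 609.6 and 504 and the skeletal Acta1 at 86.9 and 125 against 3.46, 2.74, 2.57 and 5.05. Actin genes are near-identical in their coding parts, so low counts of Acta1 may hold reads of the others.

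Genes of the contractile apparatus common to adherent cells were higher as well. Myl9, a myosin regulatory light chain, had 16243 and 11114 counts against 3428, 4547, 3978 and 3406, the focal adhesion gene vinculin, Vcl, 42308 and 45509.8 against 19789, 21436, 18800.3 and 21077, and the actin crosslinker gene Actn1 54106 and 57468 against 22056, 19729, 20987 and 22223. Tropomyosin 1, Tpm1, differed by 0.71 ± 0.09 and filamin A, Flna, by 0.31 ± 0.15, both without overlap. Itga8, an integrin of mesenchyme, overlapped at 1435 and 1844 against 3265, 7024, 3698 and 1809.8.

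Serum response factor binds the CArG box. Exact boxes were searched for on both strands of the 250 bases before the RefSeq start (GRCm38.p6). A CArG box on one strand is also one on the other, and each was counted once. Of the 14 contractile genes separated higher, 10 had a promoter in the RefSeq table and 4 of these held the motif. It was held by 2 of 13 other tested contractile genes (Myl6 and Srf). The shares were 1.42% of the tested genes with a promoter and 1.62% of all genes of the RefSeq table. Of the 4 separated genes with the motif, Acta1 passed the filter only through the first set. The promoters of these 4 genes are shown 5′ to 3′ with the CArG box in capitals, since the genes moved together. They are Myl9 (chr2:156775214-156775463, plus strand), Acta1 (chr8:123894776-123895025, minus strand), Vcl (chr14:20929148-20929397, plus strand) and Ldb3 (chr14:34588682-34588931, minus strand), the last a Z-disc protein with 738 and 586 counts against 94.5, 66.6, 70.3 and 96.9.
Myl9: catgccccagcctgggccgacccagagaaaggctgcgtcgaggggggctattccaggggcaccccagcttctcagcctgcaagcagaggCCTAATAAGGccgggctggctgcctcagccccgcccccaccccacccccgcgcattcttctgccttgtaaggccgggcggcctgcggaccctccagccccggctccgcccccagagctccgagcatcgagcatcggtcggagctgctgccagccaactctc
Acta1: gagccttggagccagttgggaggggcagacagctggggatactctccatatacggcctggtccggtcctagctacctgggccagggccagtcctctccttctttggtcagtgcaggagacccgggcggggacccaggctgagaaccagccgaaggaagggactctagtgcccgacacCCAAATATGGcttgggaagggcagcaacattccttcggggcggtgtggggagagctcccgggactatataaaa
Vcl: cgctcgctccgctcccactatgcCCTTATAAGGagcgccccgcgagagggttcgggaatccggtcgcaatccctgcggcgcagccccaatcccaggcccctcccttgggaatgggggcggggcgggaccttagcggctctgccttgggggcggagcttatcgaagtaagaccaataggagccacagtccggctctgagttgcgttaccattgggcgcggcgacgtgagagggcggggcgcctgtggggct
Ldb3: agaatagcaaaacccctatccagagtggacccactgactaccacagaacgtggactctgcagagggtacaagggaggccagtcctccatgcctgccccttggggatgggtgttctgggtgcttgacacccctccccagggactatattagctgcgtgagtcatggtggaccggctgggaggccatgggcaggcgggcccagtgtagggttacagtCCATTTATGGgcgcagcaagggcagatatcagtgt

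The box began 161, 73, 227 and 35 bases before the start in Myl9, Acta1, Vcl and Ldb3. The letters CATTCC, bound by TEAD factors, were held by 4 of the 10 promoters, Acta1, Acta2, Lmod1 and Vcl, by 5 of the 13 others, and by 13.0% of tested genes with a promoter. The motifs did not overlap in Acta1 and Vcl, which held both. The promoter of Acta2 (chr19:34255374-34255623, minus strand) had no exact CArG box in this window, which says nothing about its regulation. It is shown because Acta2 is a marker of the split, with the CATTCC match in capitals, which reads GGAATG here because it lies on the other strand.
Acta2: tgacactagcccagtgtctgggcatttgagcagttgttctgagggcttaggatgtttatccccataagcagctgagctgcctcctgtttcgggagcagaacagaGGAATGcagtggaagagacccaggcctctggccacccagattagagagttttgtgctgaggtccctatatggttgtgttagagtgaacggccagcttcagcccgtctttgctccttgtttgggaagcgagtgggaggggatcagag

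Pericyte genes were mixed. Of 14 tested, 4 were separated lower and 2 higher, with a median of −0.70 that changed to 0.15 without knockout 1. Angpt1, the TIE2 ligand of mural cells, had 14.7 and 31.8 counts against 169, 961, 757 and 183, and Ndufa4l2, a mitochondrial protein of pericytes, 479 and 139 against 1221, 1899.8, 2037 and 1006. Cspg4, the proteoglycan NG2, was higher in the first set at 2857 and 626 against 118, 120.4, 127 and 158, most of all in wild type 1, and the cation channel gene Trpc6 was higher evenly at 1439 and 1246 against 281, 310.2, 322 and 285. The receptor gene Pdgfrb overlapped at 14572 and 6708 against 12702, 22486, 19138 and 10958.

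Fibroblast genes were lower in part. Of 26 tested, 11 were separated lower and 4 higher, with a median of −0.98, while the summed level of the list differed little, 2.06% and 1.86% of counts against 1.58% to 1.88%. The main collagen genes and the fibulin gene Fbln2, which was separated higher, made up most of that sum. Col1a2 overlapped (184725 and 168691 against 175195, 140619, 158707 and 174000.0), Col1a1 was higher without overlap (0.58 ± 0.15) and Col3a1 lower without overlap (−0.99 ± 0.26). Among the separated genes, the receptor gene Pdgfra had 5842 and 3946 counts against 39694, 69228, 58581 and 34289.5, and Limch1, a regulator of myosin, 720.3 and 538 against 25732, 59685, 39825 and 17821. Tcf21, a transcription factor of lung lipofibroblasts, had 16.8 and 26.7 against 183, 442, 293 and 204, and the growth factor gene Fgf10 751 and 591 against 2329.6, 4486, 3484 and 2422.

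Within the second set, some of these genes ranged widely, with knockout 2 highest and wild type 2 and knockout 4 lowest. The methyltransferase gene Inmt, for example, had 179, 1337, 921 and 109 counts there and 19.9 and 47.2 in the first set. In the same list, 4 genes were separated higher. Wnt2 had 1056 and 1659.8 counts against 354, 233, 195 and 434, fibulin 2, Fbln2, 328103 and 299987 against 126238, 50843, 69834 and 126072, and the collagen gene Col6a3 42323 and 14736 against 4447, 9481, 7040.1 and 5065. The protease inhibitor gene Pi16 differed by 1.53 ± 0.31.

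Among the genes named here, the elastin gene Eln had the most negative difference. It had 40.8 and 28.8 counts in wild type 1 and knockout 1 and 15901, 49943, 29249 and 9851 in the second set, a difference of −9.23 ± 0.69 (SE). Elastin is laid down on microfibrils, and several microfibril genes were also lower. Mfap4 had 12.6 and 0 counts against 778, 5127, 1939 and 472, Fbn2 366 and 85.3 against 904, 1179.8, 1032 and 932, and Mfap2 222 and 115 against 459, 718, 544 and 434. Fbn1, the fibrillin of adult tissue, differed by only −0.70 ± 0.11, and Ltbp4, which helps elastin assemble, by −1.06 ± 0.20.

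Mesothelial genes were higher mainly in knockout 1. Of 17 tested, 6 were separated higher and 3 lower. The median of 0.54 was −0.34 within wild type and 1.42 within knockout, so it turned negative without knockout 1. Msln, mesothelin, had 19487 and 42001 counts against 8844, 6908, 4928 and 9087, the uroplakin gene Upk1b 9139 and 18587 against 2425, 2041, 1212 and 2327, and the mucin gene Muc16 695 and 1991 against 43.8, 58.4, 24.0 and 55.5. The list took 0.114% of counts in wild type 1 and 0.264% in knockout 1, and 0.0546% to 0.0949% in the second set. Aldh1a2, a retinoic acid enzyme of mesothelium, was separated lower at 670.0 and 1589 against 3633, 2138, 2577 and 3285.

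Genes of mesenchymal transition and TGF-β signalling were separated higher in 9 of 26 cases and lower in 0, with a median of 0.76. S100a4, a calcium-binding protein of motile cells, had 3884 and 3597 counts against 215, 188, 114 and 222, a difference of 4.31 ± 0.29. Connective tissue growth factor, Ctgf, had 65648 and 71295 against 22376, 17146, 15229 and 21182, and vimentin, Vim, 188787 and 161808 against 62056, 63227, 64493 and 65351. Tgfb2 had 2024 and 2022 against 600.3, 517, 541 and 626, and the activin subunit gene Inhba 14877 and 14612 against 5049.8, 5464, 5264 and 5439. In these genes the 2 libraries of the first set were within a small margin of each other.

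The transcription factors of the transition did not follow one direction. Twist2 was separated higher at 1.44 ± 0.27 and Zeb1 was higher without overlap at 0.51 ± 0.12, while Snai1, Snai2 and Zeb2 were lower without overlap at −0.79 ± 0.27, −0.76 ± 0.18 and −0.55 ± 0.17. Fibronectin, Fn1, was lower without overlap at 450020.0 and 462267 against 605061, 684832, 648419 and 510522. The periostin gene Postn was separated higher at 3843 and 1554 against 581, 253, 517 and 838.

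Cdkn2a (chromosome 4, 89274471 to 89294653) was the clearest of the senescence markers. It had 4585 and 4385 counts in wild type 1 and knockout 1 and 717, 327, 473 and 615 in the second set, a difference of 3.03 ± 0.29 (SE), 2.68 within wild type and 3.26 within knockout. Both genotypes of the first set stood at the same height. The RefSeq table gives it 2 starts on chromosome 4, at 89294619 and 89282192, and the deposited count pools the transcripts of both. Its neighbour Cdkn2b, another inhibitor of CDK4 and CDK6, had 3238 and 3015 counts against 961, 658, 677 and 733, a difference of 1.98 ± 0.11.

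Other inhibitors and senescence genes differed in both directions. Of 21 tested members of the list, 2 were separated higher and 4 lower, beside 8.11% and 9.3% of all tested genes, with a median of −0.34. Cdkn1b, the inhibitor p27, had 870.0 and 832 counts against 2477, 3014, 2697 and 2629, and Cdkn2c 406 and 347 against 894, 1392, 922 and 811. Cdkn1a, the inhibitor p21 and a p53 target, was higher without overlap by a small margin, 18426 and 18232 against 13394, 14917, 17248 and 12996. Hmgb2, a chromatin protein that senescent cells lose, was lower at 398 and 259 against 942, 712, 1018 and 1165, and Hmgb1 was lower without overlap at −0.68 ± 0.12. Tbx2, which represses Cdkn2a, had 619.8 and 739 against 2502, 6147, 4047 and 2144 as given among the capillary genes.

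Targets of p53 were higher in small steps. Of 26 tested, 7 were separated higher and 1 lower, beside 8.11% and 9.3% of all tested genes. In all, 19 stood higher without overlap, beside 30.7% of all tested genes, and the median was 0.37. Perp, a desmosomal protein that also marks epithelial and mesothelial cells, had 1699 and 2703 counts against 439, 212, 199.8 and 535. The apoptosis gene Pmaip1 had 2606 and 2179.6 against 824, 577, 1037 and 947, the cyclin G1 gene Ccng1 33074 and 39154 against 17670.2, 14755, 19202 and 21328, and the kinase gene Plk3 1785 and 1721 against 854, 641, 720.2 and 876. Mdm2, the ligase that degrades p53, and Bax differed by 0.58 ± 0.16 and 0.52 ± 0.07 without overlap. The stress-response genes Sesn1, Sesn2 and Trp53inp1 went the opposite way, at −1.01 ± 0.17, −0.82 ± 0.07 and −0.83 ± 0.09.

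**Figure D5:**
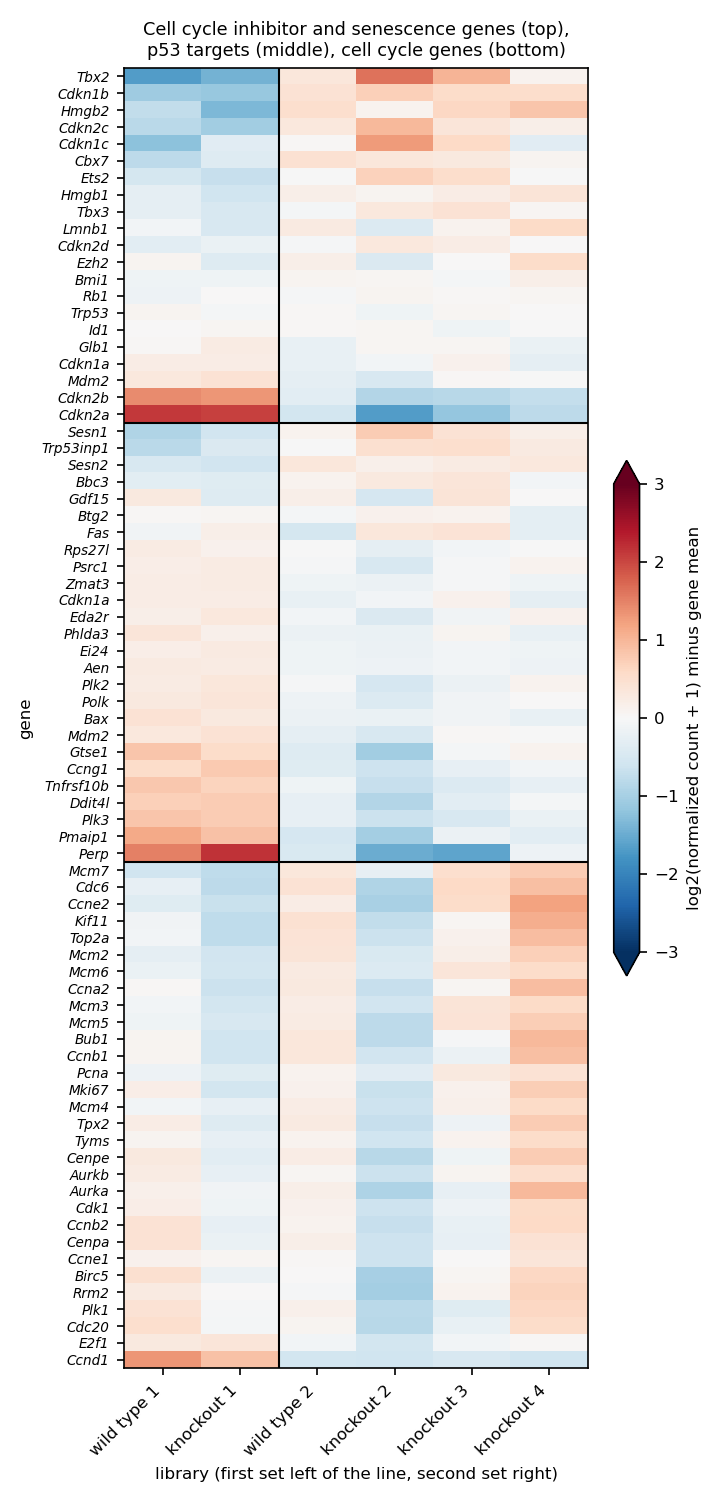
Each row is a gene and each column a library, with colour showing log2(normalized count + 1) minus the gene's mean over the 6 libraries, for cell cycle inhibitors and senescence genes (top), p53 targets (middle) and cell cycle genes (bottom). Cdkn2a and Cdkn2b are deep red in both libraries of the first set, most p53 targets are faintly red there, and cell cycle genes are ordered by library within the second set rather than by set, with knockout 4 highest and knockout 2 lowest.

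Factors that senescent cells secrete were separated in both directions, 12 of 36 higher and 9 lower, with a median of 0.61 (0.05 within wild type and 0.66 within knockout). Il6 had 495 and 927 counts against 116, 93.1, 317 and 149, the growth factor gene Areg 114 and 87.3 against 11.5, 1.82, 4.29 and 16.1, and macrophage colony-stimulating factor, Csf1, 90045 and 99874 against 33706, 19745, 24089 and 31628. Urokinase, Plau, had 12312 and 7029 against 2669, 2469, 2452 and 1858, and the metalloproteinase inhibitor gene Timp1 40406 and 40365 against 15957, 12942, 17297 and 14839. On the lower side, Hgf had 76.4 and 261 against 1037, 1218, 1494 and 1032, the neutrophil chemokine gene Cxcl1 251 and 368 against 809, 959, 1167 and 862, and the growth factor gene Fgf7 1649 and 2484 against 4664, 4619.9, 6506 and 5393. Csf1 and its receptor Csf1r thus differed in opposite directions, 1.78 and −1.01.

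Most cell cycle genes did not separate the sets. Of 30 tested, 27 overlapped, 1 was separated higher and 1 lower, with a median of −0.25. The separated shares of all tested genes were 8.11% and 9.3%. Without overlap, 2 stood higher and 1 lower, beside 30.7% and 32.7% of all tested genes. Cyclin D1, Ccnd1, was the higher one at 47299 and 34636 against 12782, 12419.9, 13584 and 12519, a difference of 1.61 ± 0.12 with a narrow range inside the second set. Mcm7, a subunit of the replicative helicase, was the lower one at 1535 and 1391 against 2978, 1966, 3328 and 3947. The proliferation marker Mki67 had 3510.2 and 2083 counts against 3343, 1917, 3332 and 5119, with knockout 4 the highest library and knockout 2 the lowest.

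Lmna, which encodes prelamin A, was separated higher in the first set at 22043 and 20235 counts against 9807, 10213, 10157 and 10159, a difference of 1.06 ± 0.07. Within each set, the knockout libraries were close to the wild type.

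Interferon-stimulated genes mostly overlapped, 18 of 26, with a median of 0.33. Without overlap, 3 stood higher and 5 lower, beside 30.7% and 32.7% of all tested genes. Of the 26, 1 (3.85%) was separated higher and 3 (11.5%) lower, beside 8.11% and 9.3% of all tested genes. The GTPase gene Irgm1 was higher at 4284 and 6586 against 2128, 1427, 2684 and 2393, and the chemokine gene Cxcl10 was lower at 47.1 and 53.4 against 103, 73.9, 484 and 209.9. Knockout 3 was the highest library for Cxcl10 and for Zbp1, a nucleic acid sensor (130.2, 204, 537 and 129 in the second set and 56.5 and 69.8 in the first). Inflammatory adhesion and NF-κB genes were split, 5 of 20 separated higher and 4 lower, beside the same 8.11% and 9.3%. Lcn2, lipocalin 2, had 3474 and 3469 counts against 15992, 55235, 59023 and 11626, and the complement gene C3 15691 and 27493 against 80617, 115121, 90713 and 65331. Vcam1 was higher at 25697 and 32316 against 16535, 8070.1, 10594 and 20265.

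Early response genes, which cell dissociation and stress induce, were separated lower in 4 of 14 cases and higher in 2. The shares of all tested genes were 9.3% lower and 8.11% higher. Fos had 621 and 871 counts against 1967, 4835, 3356 and 1805, Egr1 2343 and 1777 against 5049.8, 9583, 8352 and 5813, and the cytokine feedback gene Socs3 1449.9 and 1577 against 5223, 7437, 7045 and 4191. The heat shock gene Hspa1b was higher instead, at 340.2 and 372 against 187, 143, 147 and 158. Xist, the RNA of the inactive X chromosome, had 10292 and 10437 counts against 21758, 21197, 21443 and 27136, a difference of −1.12 ± 0.13, while the 457 tested X-linked genes had a median difference of −0.01. All 4 Y-linked genes examined were below the filter in these libraries.

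The named genes with the largest values on the higher side were not part of any list in most cases. Prl2c3 and Prl2c2, hormones of the prolactin family known as proliferins, had 1122 and 957 counts against 3.46, 0, 1.71 and 2.02, and 4657 and 1695 against 18.4, 10.9, 15.4 and 23.2. They are near-identical copies and their counts may have been exchanged. H2-M9, a non-classical MHC class I gene, had 2887 and 1106 against 17.3, 36.5, 38.6 and 48.4. The serpin gene Serpinb9b had 5524 and 5616 against 225, 142, 115 and 169.6, the envelope protein gene Ivl 2904 and 4320.1 against 242, 53.8, 135 and 328, and the chloride channel gene Ano1 1858 and 1215 against 49.5, 107, 106 and 74.7. On the lower side, beside macrophage genes, stood the matrix genes Adamts15 (7.33 and 10.3 against 2109.6, 6095, 4161 and 1584) and Spon1 (7.33 and 5.14 against 538, 3496, 2305 and 448).

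The genotype comparison asks which genes differ between knockout and wild type once the library set is a term of the fit. By limma on log2(normalized count + 1), 535 of 15229 genes had an unadjusted p under 0.05, fewer than the 5% that no difference would give. With Benjamini-Hochberg adjustment over all 15229 genes, 1 gene (0.00657%) was called, RP23-357P12.1, higher in knockout. It had 15.7 and 668 counts in wild type 1 and knockout 1, and 11.5, 629.6, 622 and 744 in wild type 2 and knockout 2, 3 and 4 (limma log2 5.57 ± 0.17, SE, adjusted p = 0.00342, higher in 4 of 4 knockout libraries). The call was lost when wild type 1, wild type 2, knockout 1 or knockout 3 was left out. With genotype alone and no set term, 143 genes had an unadjusted p under 0.05. On recovered reads, edgeR called 2 genes (0.0131%), this one and Ndufs5, and DESeq2 called 50 (0.328%), 11 higher (0.0722%) and 39 lower (0.256%) in knockout.

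None of the 453 tested list genes was called by limma or by edgeR. DESeq2 called 10 of them, beside 50 of all 15229 tested genes. Of the 10, 8 were lower in knockout, most of them endothelial, and of the 50, 39 were lower. The median genotype difference by limma was −0.44 for pan-endothelial and −0.93 for lymphatic genes, against −0.003 for all tested genes. The other endothelial lists had medians from −0.14 (venous) to 0.14 (lung capillary). The sprouting list, which holds Esm1, had a median of −0.10. The calls were larger in size than the medians of their lists, and whether they stand apart from the lists was not tested. Esm1 had 6410.0 counts in wild type 1 and 2289 in knockout 1, and 1152 in wild type 2 against 584, 451 and 668 in knockout 2, 3 and 4. It was therefore lower in 4 of 4 knockout libraries than in the wild type of the same set (DESeq2 log2 −1.21, adjusted p = 0.000137; limma adjusted p = 0.999). The VEGF receptor gene Flt1 had 9339 and 3854 in the first set, and 4732 against 2724, 3136 and 2495 in the second (DESeq2 log2 −0.97, adjusted p = 0.00019).

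Vwf followed with a DESeq2 log2 difference of −0.82 (adjusted p = 0.00123), the TIE2 ligand gene Angpt2 with −1.0 (adjusted p = 0.00651), the lymphatic receptor gene Flt4 with −1.01 (adjusted p = 0.00809), Reln with −1.36 (adjusted p = 0.0109), Plvap with −0.88 (adjusted p = 0.0116) and Tgfb1 with −0.46 (adjusted p = 0.0274). By DESeq2 the collagen gene Col8a1 was higher in knockout at 0.55 (adjusted p = 0.000886) and so was Gucy1a3, a subunit of the nitric oxide receptor, at 1.18 (adjusted p = 0.0297). All of these had a limma adjusted p of 0.999. Esm1, Vwf, Plvap and Reln were also separated higher in the first set, and Tgfb1 and Col8a1 stood higher there without overlap. The markers Lyz2, Chil3, Acta2, Cdh5 and Cdkn2a were called by none of the 3 tools.

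Whether the genotype difference itself was unlike between the sets was tested as an interaction. The first set holds 1 library of each genotype, so the spread comes from knockout 2, 3 and 4 alone. In 3 simulations with 200 changed genes each, limma recovered 0% of the interactions at 2-fold and 0% at 4-fold. The recovery by edgeR was 0% at 2-fold and 21.7% at 4-fold. A count of 0 by either tool therefore cannot show that the genotype difference was alike in the 2 sets. By limma 0 genes (0.0%) were called and 600 had an unadjusted p under 0.05. With edgeR 0 were called and 582 had an unadjusted p under 0.05, and DESeq2 called 27 (0.177%), 10 higher (0.0657%) and 17 lower (0.112%).

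Of the 27, 6 were list genes. Cspg4 had 2857 counts in wild type 1 and 626 in knockout 1, but 118 in wild type 2 and 120.4, 127 and 158 in knockout 2, 3 and 4 (DESeq2 log2 −2.39, adjusted p = 0.00336). Cxcl12 was lower in knockout 1 than in wild type 1 (3292 against 10038), while knockout 2, 3 and 4 had 9040.1, 7896 and 6461 against 6413 in wild type 2 (DESeq2 adjusted p = 0.0043). The collagen genes Col14a1 and Col6a3 and the receptor gene Cxcr4 were likewise lower in knockout 1 than in wild type 1 and no lower in the other knockout libraries than in wild type 2, with DESeq2 adjusted p of 0.0043, 0.0385 and 0.0134. Prox1, the transcription factor of lymphatic fate, had the opposite pattern, 1792 and 1703 in the first set and 1899 against 725, 636 and 657 in the second (DESeq2 adjusted p = 0.0268). In each case 1 library of a genotype stands for the first set, and limma's adjusted p was 0.999.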

How the data were processed

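Poly(A) RNA of 6 cultures of mouse lung endothelial cells was sequenced. The authors deposited 1 table of normalized counts, a signal that is the read count of a gene divided by a size factor of its library. Per the submitters' processing notes, Trimmomatic 0.36, STAR 2.6.0c and featureCounts of Subread 1.6.1 were used with GRCm38.p6. The series design text names other tools. Which set of tools produced the deposited values, and whether strand was used, are not given in the sources used here, so overlapping and antisense genes may share reads. All values were whole multiples of 1 read per library (100%, tolerance 1e-06), which gave the reads used for depth and for the count models. Depth was 32699024 to 45613685 reads, and genes near the filter rest on few reads in some libraries, where counting error is large.

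Genes with a mean of at least 10 were kept and fitted with limma 3.58.1 (trend, R 4.3.3) on log2(normalized count + 1), with genotype and library set as terms and Benjamini-Hochberg adjustment at a threshold of 0.05. The set difference is the coefficient of that fit and was not tested. Alternatives on the recovered reads were DESeq2 1.42.0 and the quasi-likelihood test of edgeR 4.0.16. Others were pseudocounts of 0.5 and 5, no filter or a mean of at least 50, TMM scaling, no genotype covariate, a replicate block and leaving out each library. The fits were tested on simulated data. Tables were handled in Python 3.11.15 with numpy 2.4.6 and pandas 2.3.3. Coordinates are of GENCODE M21 on GRCm38, matched by symbol for 13352 of 15229 tested genes, and promoters of RefSeq (GRCm38.p6).

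The members of both sets and the 26 gene lists (510 genes, 453 tested) were chosen with earlier results of these data known. A naming rule gave 111 genes: the 5 markers, Zmpste24 and Lmna, the 12 largest separated differences in each direction at a mean of at least 200, and of each list up to 3 separated members, the member of highest count and the strongest opposite member, at a mean of at least 50, with genes called in the genotype or interaction test. A further 157 genes were added after their values were seen. A gene that the rule named is not reported here.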

Additional observations from a re-analysis of the deposited data

Results flagged for a closer look

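Of 268 named genes, 66 had knockout 1 so far from knockout 2, 3 and 4 that its gap, as a share of the range of the 4 libraries, exceeded Dixon's critical value. Chance gives about 5% of such groups, and the split into sets itself puts knockout 1 apart, so this count restates the split. Col4a1, a chain of basement membrane collagen, differed from these in that knockout 4 stood apart, with a gap of 0.843 of the range (249736, 240957, 247513 and 198878 counts in knockout 1, 2, 3 and 4).

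By DESeq2, the genotype difference was unlike between the sets for 10 genes listed here by their adjusted p. Serpinf1, the gene of an antiangiogenic serpin, had 12560.4 counts in wild type 1 and 3307 in knockout 1, while the second set was level at 4673, 4739, 5064 and 4725 (DESeq2 adjusted p = 1.93e-09). Gdpd2 went up instead, from 37.7 in wild type 1 to 237 in knockout 1, with 645, 520.1, 624 and 614 in the second set (DESeq2 adjusted p = 0.0009). Fbn2, a fibrillin, had 366 and 85.3 counts in the first set and 904, 1179.8, 1032 and 932 in the second (DESeq2 adjusted p = 0.0019). Nes, the intermediate filament nestin, had 17571 and 8640.2 against 3992, 4809.8, 5008 and 4456 (DESeq2 adjusted p = 0.00699).

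For Cspg4 the DESeq2 adjusted p was 0.00336, for Col14a1 0.0043 and for Cxcl12 0.0043, with counts given in the report. For Oaf it was 0.00488 (8112 and 2949 counts in the first set and 1592, 1413, 1469.6 and 1451 in the second) and for Mylk2, a myosin kinase, 0.00671 (1041 and 26.7 and 3.46, 5.47, 7.72 and 2.02). For Eps8l1 the DESeq2 adjusted p was 0.00912, where knockout 1 was below wild type 1 (142 and 15.4) and knockout 2, 3 and 4 were above wild type 2 (11.5, 94.0, 189 and 56.5). None of the 10 was called by limma (adjusted p = 0.999) or by edgeR, and the first set holds 1 library of each genotype.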

How the results depend on the processing

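The set differences kept their direction in most cases. Of the alternatives to named genes, 2824 moved by less than the spread, 357 moved by more and 10 changed sign. For list medians these were 246, 47 and 7. Separated genes on the higher side numbered 2576 with no filter and 802 at a mean of at least 50, and the split was 1191 higher to 1486 lower with TMM scaling. Without knockout 1, which leaves wild type alone, the median turned to 0.68 for alveolar macrophage genes, −0.37 for MHC class II, 0.15 for pericyte and −0.34 for mesothelial genes. Over all libraries left out in turn these medians ranged from −0.63 to 0.68, −0.37 to 0.78, −1.01 to 0.15 and −0.34 to 1.42. Without knockout 4 the alveolar macrophage median was 0.015. The lymphocyte and other leukocyte median was 0.42 with no filter and 1.32 at a mean of at least 50, where fewer genes remain. Single genes that changed sign, each without knockout 1, ranged from −0.0737 to 0.78 (Angpt2), −1.23 to 0.65 (Cxcl12), −0.53 to 0.0705 (Ets1), −0.37 to 0.97 (H2-DMb1), −0.62 to 0.0702 (Mki67) and −1.32 to 0.20 (Pdgfrb). The set difference of Kitl, near 0, was −0.0165 with TMM, −0.0456 with no genotype covariate, −0.0105 without knockout 1, and −0.0208 to 0.0309 over the left-out libraries. The cause was not tested. Of 218 named genes with a difference of at least 1, 31 moved by more than 1.5 times without knockout 1 (among them Abcg1, Adm, Aldh1a2, Clec7a, Col6a3, Egr1, Fbn2, Gpihbp1, Lpl, Lyz1, Mfap2, Msln, Ndufa4l2, Notch4, Reln, Sftpc, Thbd and Vcam1) and 10 without either wild type library, which leaves knockout alone, while 0 did so without knockout 2, 3 or 4.

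The genotype test called 2 genes with a pseudocount of 5, 2 with edgeR, 50 with DESeq2 and 0 to 1 with 1 library left out. With a replicate block it called 0 genes, and 781 had an unadjusted p under 0.05. Replicate numbers are shared labels only: number 1 is the first set, and knockout 3 and 4 have no partner. As deviations from their genotype means, wild type 1 and knockout 1 had r = 0.84 across genes, and wild type 2 and knockout 2 0.56. The first value is the same quantity as the r of the set differences within genotype, so it restates the split. The second holds the split too, since the deviation of wild type 2 mirrors that of wild type 1. Neither is a check of pairing. The interaction test called 2767 genes with no filter, where genes with no variance among the knockout libraries enter, and 27 with DESeq2. Leaving out wild type 1, wild type 2 or knockout 1 leaves no interaction to estimate, so these were not run.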

Other observations

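Gene families outside the lists also differed between the library sets, and these were chosen after their values were seen. In the prolactin family, hormones known from placenta and pituitary, 26 members were in the table, 23 had a read and 9 were tested. The 9 were separated higher in the first set, but several were near 0 in the second and passed the filter only through the first, so the number is not read. Beside Prl2c2 and Prl2c3, Prl8a2 stood at 494 and 1022 counts in the first set (wild type 1, knockout 1) and 84.1, 193, 226 and 120.1 in the second (wild type 2, knockout 2, 3 and 4). Of 13 pregnancy-specific glycoprotein genes in the table, 3 were tested, and of these Psg22 was well read in both sets, with 3360.5 and 1593 against 218, 212, 216 and 169.6. Of 7 serpin B9 genes 5 were tested. Serpinb9 itself, at 1374 and 1836 against 948, 964, 953 and 998, did not reach a difference of 1, and Serpinb9e had 242 and 188 against 2.30, 2.74, 3.43 and 6.06. Members of these families are near copies, so reads may have been assigned to the wrong member.

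Of 9 mast cell protease genes, 5 were tested, and only those high in the first set could pass where the second was at 0. Mcpt4 had 39.8 and 63.7 counts in the first set, and Mcpt2 23.0 and 44.2, and each was at 0 in all 4 libraries of the second set. Cma1, another such protease, was also at 0 in the second set and had 4.19 and 74.0 in the first, mostly from knockout 1. Of 19 Ms4a genes, a family of membrane proteins of leukocytes, 9 were tested. Ms4a4d, read in every library, had 1109.7 and 1014 against 3305, 6511, 5399.9 and 2673, Ms4a7 0 and 3.08 against 62.2, 161, 181 and 98.9, and Ms4a4b, in the opposite direction, 97.4 and 109.9 against 26.5, 48.4, 27.4 and 26.2.

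Of 22 tested imprinted genes, 4 were separated higher and 4 lower, beside 8.11% and 9.3% of all tested genes. The maternally expressed RNAs of the Dlk1 to Dio3 region on chromosome 12 were higher together. Meg3 had 2349 and 1745 counts against 230.4, 249, 256 and 371, Rian 6707 and 3905 against 320.3, 209.9, 318 and 562, and Mirg 142 and 106 against 9.22, 5.47, 17.1 and 11.1. On the lower side, H19 had 688 and 1528 against 5542, 4924, 2773 and 1713, with a wide range in the second set, and Peg3 6623 and 8547 against 12770.2, 19281, 17421 and 16348. Metallothionein genes, which bind zinc and copper, were separated lower in 3 of 3 tested cases, beside 9.3% of all tested genes, such as Mt2 with 17244 and 14142 against 36069.8, 57946, 53749.7 and 31945. Of 13 host genes of small nucleolar RNAs, 4 were separated lower, beside the same 9.3%, led by Snhg5 with 496 and 539 against 2111, 1882, 2097 and 2455.

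A gene outside the lists differed by genotype in both sets. Ndufs5, a subunit of respiratory complex I, was read at 507 (wild type 1) and 484 (wild type 2) counts, and at 1.03, 5.47, 4.29 and 5.05 in the 4 knockout libraries (limma log2 −7.00 ± 0.42, SE, adjusted p = 0.0599; edgeR adjusted p = 0.0254; DESeq2 adjusted p = 2.32e-25). It was lower in 4 of 4 knockout libraries, in both sets alike. RP23-357P12.1, given in the report, was higher in 4 of 4.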
